A study of Mus musculus with 2 samples.

Results

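Apoe and its neighbour Apoc1 are 2 of the 27998 genes in the deposited tables, taken by symbol. Apoe encodes apolipoprotein E, the main lipid carrier of the brain, and Apoc1 encodes apolipoprotein C-I, a small protein of lipoprotein particles. Their levels were read in 2 single-cell libraries of microglia, which are macrophages that live in the brain. The cells were sorted from the corpus callosum of C57Bl6 mice with the genotype given as CX3CR1, after 4 weeks on cuprizone. Cuprizone, which binds copper, causes loss of oligodendrocytes and of myelin when fed to mice. 1 library came from the medial and 1 from the lateral part of this white matter tract, so both groups had received cuprizone and carried the same genotype label. No untreated mice, no pooling scheme, no Cre or reporter details and no sorting gate are given in the sources used here. Cells are barcodes with at least 2400 unique molecular identifiers (UMIs, each tagging 1 captured RNA molecule at its 3' end) and at most 10% mitochondrial UMIs.

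Apolipoproteins coat lipid particles. Apoe is secreted, loaded with cholesterol and phospholipid by transporters such as Abca1 and Abcg1, and taken up by endocytic receptors such as Lrp1. In the healthy brain most Apoe comes from astrocytes, and microglia are known to raise it when they clear myelin or meet damaged tissue. Apoc1 lies downstream of Apoe in a cluster of apolipoprotein genes and is known to hinder lipid uptake and to modulate enzymes acting on lipoproteins. In macrophages the cluster is induced by the oxysterol-sensing liver X receptors.

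The medial library held 2131 cells and the lateral 2308, with medians of 10732 and 9694 UMIs per cell. Cells held 81.8% of 28660496 medial UMIs and 82.4% of 27955414 lateral UMIs. Of the cell barcodes, 7 occurred in both libraries. All 10 microglial markers were detected, at a summed 106 (medial) and 110 (lateral) per 10000 UMIs. Astrocyte markers, which bear on Apoe because astrocytes make it, stood at 0.450 and 0.484 per 10000, against 0.312 and 0.409 in barcodes of at most 50 UMIs; 8 of the 10 were detected in each library, and Aqp4 and Gjb6 were at 0. Border macrophage markers stood at 0.758 and 0.615 per 10000, against 0.770 and 0.673 in those barcodes, with 6 of 8 detected in each library and Lyve1 and Cd163 at 0. The other 12 lists of marker genes lay between 0.000434 and 1.14 per 10000. With 1 library per region, every difference below compares 2 libraries and no test between regions was possible. Intervals in parentheses are 95% intervals that cover counting error alone.

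Both genes lie on the minus strand of chromosome 7 in GRCm38, the build also named mm10. Apoe (ENSMUSG00000002985) spans 19696109 to 19699188 and Apoc1 (ENSMUSG00000040564) 19689481 to 19692660, with 3448 bases between them. No 57-base window of the annotated transcripts of either gene occurs in a transcript of another gene, so the read length used here can tell them apart. The RefSeq promoter table (GRCm38.p6), which gives 250 bases before and 50 after each start site, lists 3 Apoe start sites; Apoc1 has no entry there. The first of them is shown because its start coincides with the 5' end of the Apoe gene in the annotation. It covers chr7:19699139-19699438 on the minus strand, and capitals mark GAGGAA on either strand, the core letters of sites for the myeloid factor Spi1.
Apoe promoter: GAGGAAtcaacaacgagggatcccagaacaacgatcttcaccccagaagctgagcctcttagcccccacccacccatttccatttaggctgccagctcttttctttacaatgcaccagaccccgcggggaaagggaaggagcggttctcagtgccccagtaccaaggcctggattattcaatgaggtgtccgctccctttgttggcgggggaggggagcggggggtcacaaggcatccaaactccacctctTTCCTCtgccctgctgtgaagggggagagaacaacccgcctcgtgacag

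GAGGAA begins at position -250 on the strand of the gene and at position 2 on the opposite strand, counted from the start site. Of 32851 promoters in that table, 28.3% hold it. The TATA box TATAAA (in 13.6% of promoters), the GC box GGGCGG (35.7%), CCAAT (37.4%), the nuclear receptor core AGGTCA (16.3%), the AP-1 motif TGANTCA (7.81%) and the E-box CACGTG (7.15%) had no match on either strand in this window. Of the start sites not shown, the second had TATAAA at -96 on the strand of the gene and at -100 on the opposite strand. The third had GAGGAA at -132 on the strand of the gene. All these matches are letters only.

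Apoe was the most abundant transcript of the microglia in both libraries. It accounted for 1108883 UMIs in medial and 949052 in lateral cells, which is 47302 counts per 1000000 UMIs (CPM) (47214 to 47390) and 41178 CPM (41095 to 41261). The next gene, the lysosomal protease Ctsd, stood at 29073 and 28173 CPM. Apoc1 was found far less often, with 8114 medial and 5547 lateral UMIs, or 346 CPM (339 to 354) and 241 CPM (234 to 247). It ranked 390 among medial and 582 among lateral genes. Each captured molecule is counted once at its 3' end, so transcript length does not enter these values, although capture can differ between genes.

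Both genes were higher in the medial library. The medial over lateral ratio was 1.15 for Apoe (1.146 to 1.152), a log2 ratio of 0.20. For Apoc1 it was 1.44 (1.39 to 1.49), a log2 ratio of 0.52 (0.47 to 0.57). Of 9843 genes with at least 100 UMIs, 14.9% had a ratio past 1.2 in either direction, 7.42% above it and 7.49% below its inverse. Apoc1 was among the genes above it and Apoe was not, but Apoe passed 1.2 when each cell counted alike (log2 ratio 0.30) or was thinned to 1 depth (0.29). A higher ratio than that of Apoc1 was found for 2.12% of the genes, and a higher ratio than that of Apoe for 11.1%. Among the 20 genes with at least 0.1 of the UMIs of Apoe, a set chosen after the values were seen, log2 ratios ran from -0.25 to 0.20, with Apoe at the upper end. Because Apoc1 differed more than Apoe, the libraries also differed in the balance of the pair. There were 7.32 Apoc1 UMIs per 1000 Apoe UMIs in medial cells (7.16 to 7.48) and 5.84 in lateral cells (5.692 to 6.001).

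Every cell of both libraries contained Apoe UMIs, but in very different amounts. As a share of the UMIs of a cell, Apoe had a median of 4.08% in medial cells, with a lowest value of 0.546% and a highest of 35.96%. In lateral cells the median was 3.38%, the lowest 0.297% and the highest 26.5%. Cells in which Apoe took more than 10% of all UMIs made up 7.60% of the medial library (162 cells) and 3.38% of the lateral (78 cells). When each cell was thinned at random to 2400 UMIs, so that all cells had 1 depth, the median was 96 Apoe UMIs in medial and 81 in lateral cells, with quartiles of 63 and 148 and of 49.75 and 130. Free RNA alone would give 127.6 (medial) or 111 (lateral) Apoe UMIs at that depth, and 67.1% of medial and 67.4% of lateral cells had a lower Apoe share than free RNA, so a UMI in every cell does not show that every cell expressed Apoe. The distributions of the 2 libraries overlapped over most of their range. The variance of Apoe over cells was 58.0 times its mean in medial cells and 43.4 times in lateral cells. For the next 20 genes by level the median of this ratio was 3.21 and 4.08, and Spp1 in the lateral library (47.2) was the only one of them above Apoe in its library. At an equal relative spread this ratio grows with the mean, and Apoe had the highest mean. The gap therefore cannot be read as a larger relative spread of Apoe. Beyond counting error, the spread of Apoe was 0.69 of its mean in medial and 0.66 in lateral cells, which was not compared with other genes.

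Apoc1 was concentrated in few cells. At 2400 UMIs, 33.0% of medial cells (31.0 to 35.1) and 25.9% of lateral cells (24.1 to 27.7) held at least 1 Apoc1 UMI; without thinning these shares were 68.7% and 51.2%. A barcode of 2400 UMIs filled by free RNA alone would on average hold 0.889 (medial) or 0.519 (lateral) Apoc1 UMIs, so a single UMI is not read here as expression by the cell, and these data hold no other cell type that would serve as a comparison. Counts of 10 or more stand well above that level. They were found in 37 medial cells (1.74%) and 16 lateral cells (0.693%), up to 28 and 33 UMIs. Those few cells held 22.2% of all medial and 17.5% of all lateral Apoc1 UMIs, before thinning 11 to 126 UMIs each in medial and 16 to 145 in lateral cells. The 10% of cells with most Apoc1 held 69.3% and 73.2% of its thinned UMIs, against 25.8% and 24.5% for Apoe. Level enters this gap, since mean thinned UMIs were 0.903 and 0.610 for Apoc1 and 119 and 97.4 for Apoe. Against genes of like level, the variance of Apoc1 over its mean was 6.63 in medial cells (median 1.09 of 513 genes). In lateral cells it was 5.86 (median 1.06 of 816 genes). Since so much of the total sits in few cells, counting intervals understate how much Apoc1 could vary between samples of cells.

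**Figure D1:**
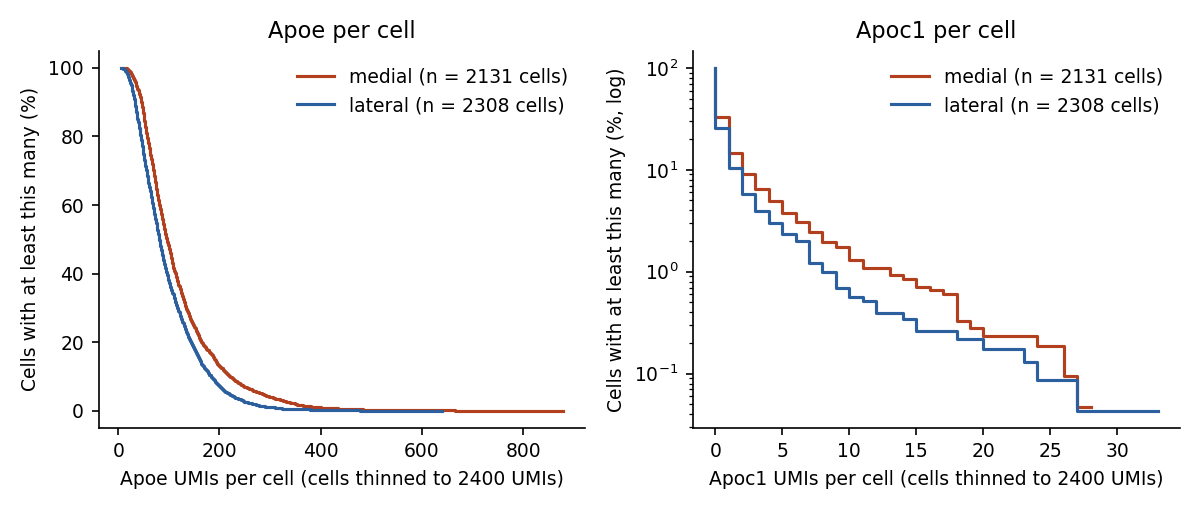
Share of cells (y axis, %; log axis for Apoc1) with at least the number of UMIs on the x axis, for Apoe (left) and Apoc1 (right), with every cell thinned to 2400 UMIs; lines are the medial (2131 cells) and lateral (2308 cells) libraries. All cells hold Apoe, with medians of 96 and 81 UMIs, whereas 33.0% and 25.9% hold any Apoc1 and a tail reaches 28 and 33 UMIs.

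The Apoc1-rich cells were also rich in Apoe. At 2400 UMIs, 37 medial cells held at least 10 Apoc1 UMIs and 1427 held 0. Apoe took a median of 8.48% of UMIs in the former and 3.76% in the latter. In the lateral library the medians were 6.04% in 16 cells and 3.21% in 1711 cells. The cells with 0 were not free of Apoc1, since before thinning they held 17.3% of medial and 19.1% of lateral Apoc1 UMIs. The depth of the Apoc1-rich cells did not stand out, with medians of 9728 against 10958 UMIs in medial and 10358.5 against 9758 in lateral cells. Border macrophage markers were at 0.658 per 10000 UMIs in the medial Apoc1-rich cells and at 0.753 in those with 0 Apoc1 UMIs after thinning. In the lateral library they were at 0.391 and 0.623. In cells with 3 to 9 Apoc1 UMIs they were at 0.943 and 0.677, above the cells with 0 in each library. The part of these markers in the result was not tested. Microglial markers were lower in the Apoc1-rich cells, at 82.4 against 107 per 10000 in medial and 96.4 against 111 in lateral cells.

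Read the other way, Apoc1 went up with Apoe across deciles of cells ordered by Apoe. In the medial library Apoc1 ran from 144 CPM in the lowest Apoe decile (113 to 181) to 976 CPM in the highest (892 to 1066), a factor of 6.77 while Apoe itself spanned a factor of 8.84. In the lateral library it ran from 114 CPM (87.3 to 145) to 486 CPM (429 to 547), a factor of 4.27 over an Apoe span of 9.66. The libraries were close to each other in the lowest 3 deciles and farthest apart in the highest. Up to decile 6 of the medial library (362 CPM) and decile 5 of the lateral (196 CPM), Apoc1 lay below its level in free RNA. That level was 371 CPM in the medial and 216 CPM in the lateral library, and the part of free RNA in the rise was not tested. Across single cells Pearson's r of log2(UMIs + 1) was 0.22 in 2131 medial and 0.16 in 2308 lateral cells, all at 1 depth; with most Apoc1 counts at 0 these weak values are given as a description.

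**Figure D2:**
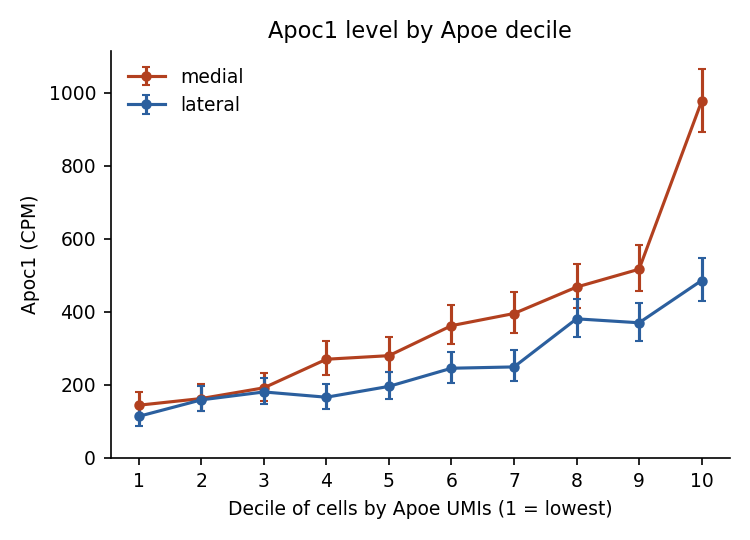
Apoc1 level (y axis, CPM) in deciles of cells ordered by Apoe UMIs (x axis, 1 is the lowest), with cells thinned to 2400 UMIs; points are the summed level of 213 or 214 medial and 230 or 231 lateral cells, and bars are 95% counting intervals. The level goes from 144 to 976 CPM in the medial and from 114 to 486 CPM in the lateral library.

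By the measure used here, Apoe was the gene most like Apoc1 across cells. Among 2624 named genes with a mean of at least 0.1 UMIs per thinned cell in each library, it ranked 1 by the smaller of the library values of r. It was followed by the protease inhibitor Cst3 (r of 0.17 medial and 0.12 lateral), the lysozyme Lyz2 (0.18 and 0.12) and the iron carrier transferrin, Trf (0.18 and 0.11). H2-D1, B2m, Ctss, Fth1, Sepp1 and Npc2 completed the first 10. For Apoe itself the most similar gene was the lysosomal protease Ctss, cathepsin S (0.58 and 0.65). The MHC class I heavy chain H2-D1 (0.45 and 0.46), Lyz2 (0.54 and 0.44), Cst3 (0.43 and 0.48) and Trf (0.42 and 0.39) came next. Then followed the sphingolipid activator precursor Psap (0.38 and 0.37), the complement chains C1qb (0.37 and 0.51) and C1qa (0.34 and 0.55), B2m (0.33 and 0.36) and Itm2b (0.33 and 0.45). Apoc1 ranked 40 for Apoe. The genes that ran most against Apoe were Tmsb4x, an actin-sequestering thymosin (-0.59 and -0.56), Ybx1 (-0.29 and -0.30), Actb, the cytoplasmic actin (-0.28 and -0.30), Oaz1 (-0.28 and -0.27) and the actin binder Pfn1 (-0.29 and -0.26). Over all these genes the median r with Apoe was -0.03 and -0.02. The UMIs of all genes in a thinned cell add up to 2400, so these values are not independent of each other. Counting error also lowers r more for genes with few UMIs. Means per thinned cell ran from 0.1 UMIs up to the 119 (medial) and 97.4 (lateral) of Apoe. Level can therefore enter these ranks, and its part was not tested.

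The cells were grouped into 6 clusters with Apoe and Apoc1 left out of the clustering, which makes the levels of both genes in them a description free of their own influence. Among the 5 clusters of more than 50 cells in each library, Apoe was highest in cluster 3, led by the MHC class II genes H2-Eb1, H2-Aa and Cd74. It stood there at 82537 CPM in 127 medial and 61609 CPM in 68 lateral cells. Cluster 5, led by the immediate early genes Fos, Jun and Egr1, followed at 57721 and 53445 CPM, and the largest, cluster 1, led by Spp1, Ctla2a and Gpnmb, at 49176 and 44598 CPM. Apoe was lowest in cluster 4, led by the cell cycle genes Top2a, Rrm2 and Nusap1, at 31177 and 30848 CPM, and in cluster 2, led by Abhd2, Actb and Slc39a1, at 33163 and 31932 CPM. These last 2 clusters cannot be ordered, since their cells spanned the same range at 2400 UMIs. The quartiles were 47 and 94 in cluster 2 and 46 and 97 in cluster 4 of the medial library, and 37 and 93 and 39 and 96.5 in the lateral. Cluster 6, led by the interferon-induced genes Ifit3, Rsad2 and Ifit1, had only 15 medial and 11 lateral cells, with Apoe at 45931 and 66525 CPM, the latter above cluster 3 of its library.

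Apoc1 was likewise highest in cluster 3, at 722 CPM medial and 579 CPM lateral, and lowest in cluster 4, at 227 and 122 CPM. Between them lay cluster 5 at 377 and 211 CPM, cluster 1 at 355 and 268 CPM and cluster 2 at 262 and 234 CPM. Cluster 6 rested on 75 and 65 Apoc1 UMIs, at 407 and 483 CPM.

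The difference between the libraries was uneven over these clusters. For Apoe the log2 ratio, medial over lateral, was 0.42 in cluster 3 (0.41 to 0.44), 0.14 in cluster 1, 0.11 in cluster 5, 0.05 in cluster 2 and 0.02 in cluster 4. In cluster 6 it was -0.53 (-0.58 to -0.49), the opposite direction, in 15 and 11 cells. For Apoc1 the order was another: 0.90 in cluster 4 (0.73 to 1.06), 0.84 in cluster 5, 0.41 in cluster 1, 0.32 in cluster 3, 0.16 in cluster 2 and -0.25 in cluster 6 (-0.74 to 0.26). So in the cell cycle cluster Apoe was nearly equal and Apoc1 was not. Apoc1 there lay below its free RNA level of 371 CPM (medial) and 216 CPM (lateral), whose log2 ratio was 0.78 (0.62 to 0.93). The part of free RNA in this difference was not tested. The mix of clusters differed too: cluster 2, low in Apoe, held 18.6% of medial and 28.3% of lateral cells, and cluster 3, high in Apoe, held 5.96% and 2.95%. With both libraries set to the same mix, an alternative added after the data were seen, the log2 ratio was 0.12 for Apoe, against 0.20 as measured, and 0.45 for Apoc1, against 0.52.

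The Apoe difference also depended on the depth of the cells. In cells of 2400 to 4999 UMIs Apoe stood at 56519 CPM medial (279 cells) and 37593 CPM lateral (424 cells), a log2 ratio of 0.59 (0.57 to 0.60). Between 7500 and 9999 UMIs the values were 58663 and 39409 CPM, log2 ratio 0.57. Between 12500 and 14999 UMIs they were 46016 and 44116 CPM, log2 ratio 0.06. At 15000 UMIs and over the direction turned, at 40244 and 41250 CPM, log2 ratio -0.04 (-0.04 to -0.03). The medial library thus had its lowest Apoe level in the deepest cells, while the lateral stayed between 37593 and 44116 CPM over all 6 ranges. The mix of clusters changed along the same axis: cluster 2 held 48.7% of medial and 67.2% of lateral cells in the shallowest range, and 6.62% and 6.25% in the deepest. Cluster 4, also low in Apoe, went the opposite way, from 3.94% and 6.37% in the shallowest range to 26.0% and 37.2% in the deepest. Within cluster 1 alone the log2 ratio for Apoe was 0.39 in the shallowest range (77 and 71 cells) and -0.15 in the deepest (196 and 132 cells). Cluster 2 had enough cells in the 3 shallowest ranges only, where its log2 ratios for Apoe were 0.04, -0.08 and 0.15, with no high value in the shallowest cells. Apoc1 was higher in the medial library in each of the 6 depth ranges, with log2 ratios from 0.13 between 12500 and 14999 UMIs to 0.85 at 15000 UMIs and over. Within cluster 1 the Apoc1 log2 ratios ran from 0.07 (-0.08 to 0.21) between 12500 and 14999 UMIs to 0.99 between 5000 and 7499 UMIs. In the 3 shallowest ranges of cluster 2 they were 0.30, 0.83 and -0.52 (-0.88 to -0.17). The last, between 7500 and 9999 UMIs, went the other way on 97 medial and 239 lateral Apoc1 UMIs. When each cell counted alike, which gives shallow cells more weight, the log2 ratio for Apoe was 0.30. The part of depth in these differences was not tested.

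**Figure D3:**
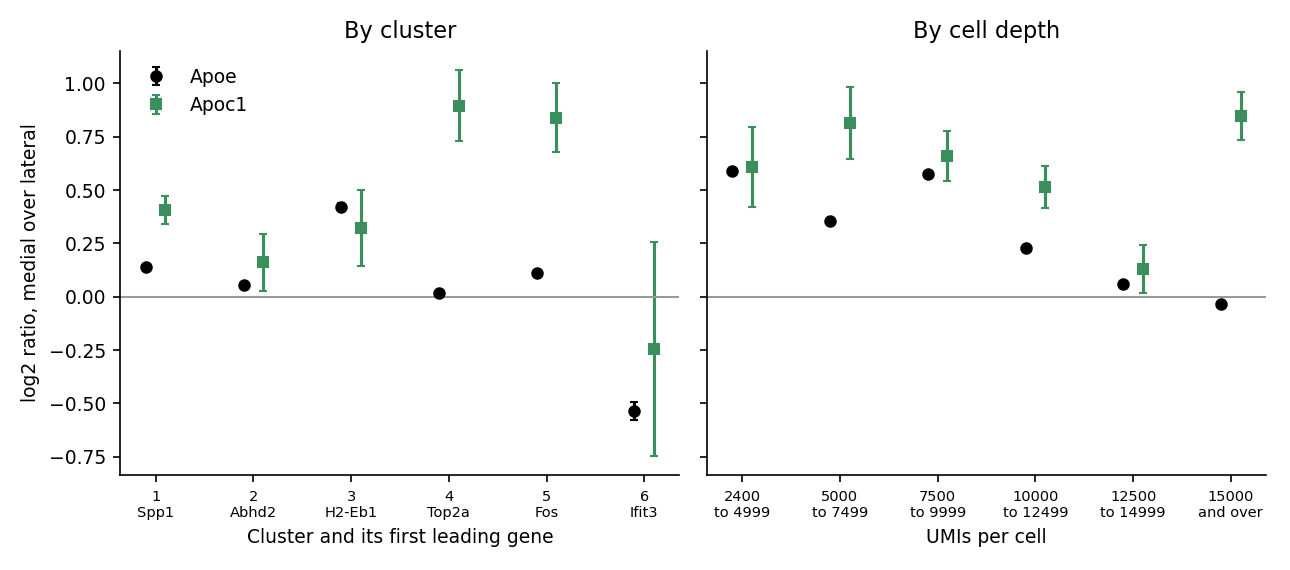
Log2 ratio of the summed level, medial over lateral (y axis), of Apoe (circles) and Apoc1 (squares) by cluster with its first leading gene (left) and by range of UMIs per cell (right); bars are 95% counting intervals. Apoe runs from 0.59 in the shallowest cells to -0.04 in the deepest, and from 0.42 in cluster 3 to -0.53 in cluster 6, which has 15 and 11 cells.

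Cell states were also read from gene lists that held neither gene, as the 10% of cells of each library with most UMIs of a list (213 medial, 231 lateral) against the other cells. Such a class is a range of a score, and cells at its edge had the same or nearly the same score as the next cells outside. Apoe was lower in cells high in proliferation genes, at 31223 against 51623 CPM in medial and 28817 against 41913 CPM in lateral cells. It was higher in cells high in lysosomal genes, at 67369 against 47608 CPM and 66073 against 37769 CPM. Cells high in MHC class II genes stood at 79533 against 46258 CPM in the medial and 48755 against 39695 CPM in the lateral library, log2 differences of 0.78 and 0.30. Cells high in disease-associated genes, the set around Spp1, Lpl and Cst7, stood at 57942 against 48655 CPM and 60096 against 38434 CPM, so here the lateral difference was the larger. Immediate early genes came with Apoe at 60203 against 48404 CPM and 49277 against 39637 CPM. Interferon-high cells were lower, at 43480 against 50261 CPM and 37570 against 40939 CPM, with the edge of the class at 10 and 9 UMIs. Cluster 6, led by interferon-induced genes, had Apoe at 45931 and 66525 CPM, against 47302 and 41178 CPM in all cells. In the lateral library both readings thus went opposite ways, that of cluster 6 on 11 cells. For homeostatic genes the values were 51997 against 49316 CPM and 46838 against 39909 CPM. The cholesterol synthesis class, whose edge was at a single UMI, stood at 44826 against 50112 CPM and 39381 against 40738 CPM.

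By value alone, Apoc1 differed in the opposite direction to Apoe in both libraries for 2 of these states, and in 1 library for 2 others. The median was 0 Apoc1 UMIs in every class, and no interval was computed for these levels. Small differences, such as 231 against 257 CPM, are therefore not read as a direction. In cells high in homeostatic genes, such as P2ry12 and Tmem119, Apoe was slightly higher but Apoc1 was lower, at 233 against 392 CPM in medial and 157 against 265 CPM in lateral cells. In cells high in lysosomal genes Apoc1 was at 321 against 383 CPM and 231 against 257 CPM. By value it was again below the other cells where Apoe was above them, with a small difference in the lateral library. In cells high in proliferation genes both were low, with Apoc1 at 205 against 395 CPM and 130 against 268 CPM. With MHC class II both were high, Apoc1 at 603 against 351 CPM and 352 against 244 CPM. The disease-associated class had Apoc1 at 460 against 367 CPM and 337 against 245 CPM, and the interferon class at 291 against 386 CPM and 207 against 260 CPM. Cluster 6 read otherwise by value, with Apoc1 at 407 and 483 CPM on 75 and 65 UMIs, against 346 and 241 CPM in all cells. By value the immediate early class went both ways, with 518 against 361 CPM in medial and 233 against 257 CPM in lateral cells. So did the cholesterol synthesis class, with 415 against 372 CPM and 231 against 257 CPM.

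Free RNA carried the same pair of transcripts. In barcodes of at most 50 UMIs, taken here as free RNA, Apoe stood at 53180 CPM (medial, 52884 to 53476) and 46390 CPM (lateral, 46127 to 46654), above its level in cells. Its medial over lateral log2 ratio there was 0.20, as in cells. Apoc1 stood at 371 CPM (346 to 396) and 216 CPM (199 to 235), a log2 ratio of 0.78 (0.62 to 0.93), against 0.52 in cells. The balance of the pair in free RNA was 6.97 Apoc1 UMIs per 1000 Apoe UMIs in the medial library (6.51 to 7.45), whose interval holds part of that of cells, and 4.67 in the lateral (4.28 to 5.07), below the 5.84 of cells. Subtracting free RNA at 5% of the UMIs of each library left the log2 ratios at 0.20 and 0.51. How much of the Apoe in a given cell came from free RNA was not tested.

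Barcodes between free RNA and cells changed with their UMI total. In those of 51 to 100 UMIs, the most numerous, Apoe was at 55957 and 48838 CPM and Apoc1 at 385 and 204 CPM, near free RNA. Those of 301 to 1000 UMIs, 290 medial and 289 lateral, held Apoe at 87612 CPM (86138 to 89105) and 73904 CPM (72539 to 75288), the highest of all ranges of barcodes. Apoc1 was at 293 CPM (214 to 392) and 192 CPM (129 to 276) there, on 45 and 29 UMIs. With 3.34 and 2.60 Apoc1 UMIs per 1000 Apoe UMIs, the balance of the pair lay below that of cells and of free RNA in both libraries.

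**Figure D4:**
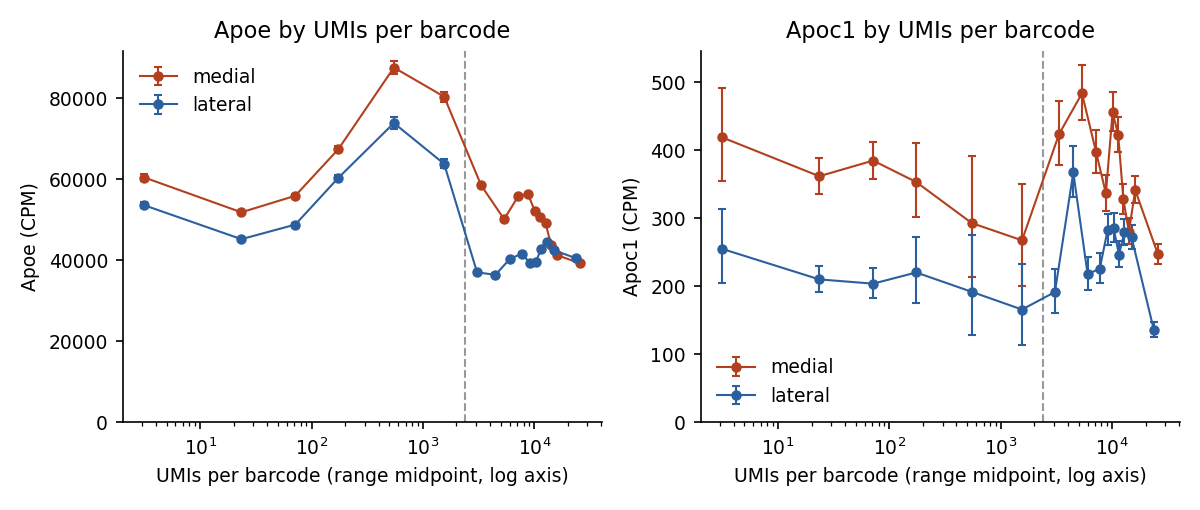
Level (y axis, CPM) of Apoe (left) and Apoc1 (right) in ranges of barcodes by UMI total (x axis, log), for the medial and lateral libraries; bars are 95% counting intervals and the dashed line is the minimum of 2400 UMIs for a cell, with cells in deciles to its right. Apoe peaks at 87612 and 73904 CPM in barcodes of 301 to 1000 UMIs, and in the deepest decile of cells Apoe is at 39286 and 40553 CPM while Apoc1 stays apart at 247 and 136 CPM.

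Signal from other cell types was compared with the same values. Cells without any astrocyte marker UMI held Apoe at 47728 CPM (1406 medial cells) and 41475 CPM (1542 lateral cells). Cells with at least 1 such UMI held 46578 and 40691 CPM. For border macrophage markers the levels were 46596 CPM without and 48018 CPM with a marker UMI in medial cells, and 38463 and 44878 CPM in lateral cells. A deeper cell is more likely to hold a marker UMI, but depth was not matched here, and the part of other cell types in the Apoe level was not tested.

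Around the pair on chromosome 7, the other genes differed less between the libraries than Apoc1. Within 100 kb on either side, 13 further annotated genes were in the gene table and 7 had at least 100 UMIs. Their log2 ratios ran from -0.18 to 0.23 and 0 of the 7 passed a ratio of 1.2, against 14.9% of all genes. With ratios centred on the median gene, an alternative added after the data were seen, 1 of the 7, Apoc4, passed it at a log2 ratio of 0.27. Apoc4, the next apolipoprotein downstream (ENSMUSG00000074336, 19678083 to 19681479), had 80.7 CPM in medial and 68.8 CPM in lateral cells (log2 ratio 0.23, 0.13 to 0.33). The gene model Gm44805, listed in the tables under the symbol Apoc2, overlaps it on the same strand, and 5.64% of its 57-base windows occur in other genes, so its value is uncertain. Apoc2, which activates lipoprotein lipase, reached only 0.938 and 1.08 CPM on 22 and 25 UMIs. Upstream of Apoe, the mitochondrial import pore gene Tomm40 stood at 65.7 and 66.3 CPM, and the adhesion gene Nectin2, listed as Pvrl2, at 46.2 and 44.4 CPM. Downstream, Clptm1 had 114 and 129 CPM (log2 ratio -0.18, -0.26 to -0.10), and the NF-kB subunit Relb 58.1 and 52.3 CPM (log2 ratio 0.15, 0.04 to 0.27). The splicing-related gene Clasrp stood at 11.1 and 11.2 CPM, and the lincRNA Gm26890, which Clasrp overlaps on the same strand, at 4.18 and 4.21 CPM.

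Of 46 other genes of the Apoe pathway, 26 had at least 100 UMIs. A ratio past 1.2 was found for 3 of these 26 (11.5%), 2 with more in medial and 1 with more in lateral cells, against 14.9% of all genes. Their median log2 ratio of -0.04 equalled that of all genes. Of the 13 other apolipoproteins in this list, which does not hold every gene with such a name, Apoc4 alone passed the minimum. Apoa4, Apoa5, Apoc3, Apoh and Apom were at 0 UMIs, which at 3 counts allows a level of up to 0.128 CPM (medial) or 0.130 CPM (lateral). Clu, an abundant astrocyte apolipoprotein, was at 0.256 and 0.260 CPM on 6 UMIs in each library.

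The receptors that bind Apoe were dominated by Trem2, the lipid-sensing receptor of microglia, at 2658 and 2730 CPM, log2 ratio -0.04 (-0.05 to -0.02). Lrp1, a large endocytic receptor, stood at 164 and 175 CPM, while Vldlr and Lrp2 were at 0 UMIs. The sorting receptor Sorl1 passed 1.2-fold towards the medial side with 11.3 and 8.33 CPM (log2 ratio 0.43, 0.16 to 0.71). In free RNA Sorl1 was at 6.85 and 8.95 CPM, on 16 and 23 UMIs. The lipoprotein receptor Scarb1 was at 75.2 and 90.0 CPM, log2 ratio -0.26, just inside 1.2-fold. Among proteins that handle these receptors, the chaperone Lrpap1 was at 299.6 and 326 CPM and Mylip, a ubiquitin ligase that degrades lipoprotein receptors, at 123 and 109 CPM, log2 ratio 0.17 (0.09 to 0.24).

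Of the liver X receptors and the transporters that load Apoe, none with at least 100 UMIs passed 1.2-fold. Nr1h2, the widely expressed liver X receptor, was at 53.5 and 54.9 CPM, and Nr1h3, the form typical of macrophages, at 1.19 and 0.955 CPM on 28 and 22 UMIs. The cholesterol transporter Abca1 had 220.2 and 206 CPM (log2 ratio 0.09, 0.04 to 0.15) and Abcg1 had 176 and 187 CPM (log2 ratio -0.09, -0.15 to -0.02). Both are targets of the same receptors as Apoe. Among lipid-processing genes the oxysterol-forming hydroxylase Ch25h had 76.2 CPM medially and 50.1 laterally (log2 ratio 0.61, 0.50 to 0.71). Lipoprotein lipase, Lpl, went the other way with 715 and 865 CPM (log2 ratio -0.27, -0.30 to -0.24). Npc2, which moves cholesterol out of lysosomes, was the most abundant of them at 2022 and 2106 CPM. In free RNA Ch25h was at 94.1 and 56.1 CPM, above its level in cells, and Lpl at 577 and 685 CPM, below it. The part of free RNA in these differences was not tested.

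**Figure D5:**
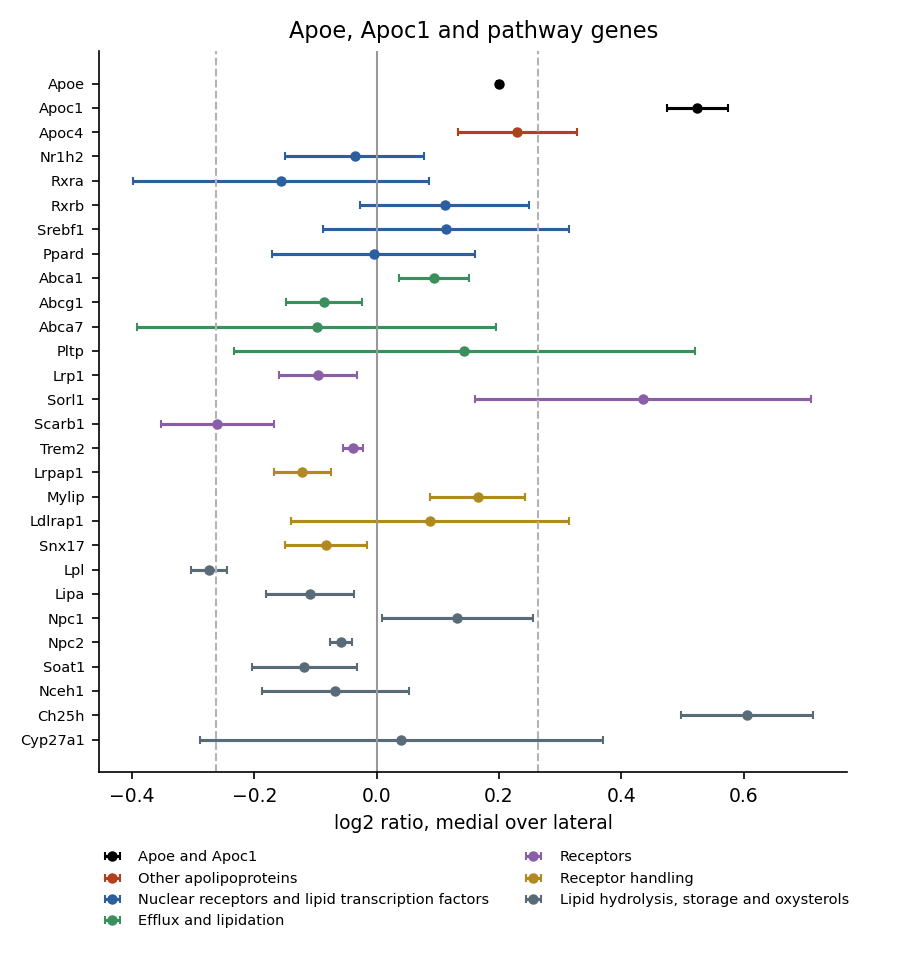
Log2 ratio, medial over lateral (x axis), of Apoe, Apoc1 and the 26 pathway genes with at least 100 UMIs, coloured by role; bars are 95% counting intervals, dashed lines mark a ratio of 1.2 in either direction. Apoc1, Sorl1 and Ch25h lie beyond the upper line and Lpl beyond the lower.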

How the data were processed

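The authors deposited whole-number UMI counts for 27998 genes and 737280 barcodes per library, with no normalisation or filter on cells. Cell Ranger 2.0.1, STAR and mm10 are named in the submitters' processing notes; the sources used here do not give an annotation version. Counts of symbols with several gene IDs were summed. Cells had at least 2400 UMIs and at most 10% mitochondrial UMIs, which left out 3 barcodes in each library; doublets were not removed (Scrublet marked 5 in each library). Levels are CPM of the cells' UMIs with exact Poisson intervals, ratios have exact conditional binomial intervals and shares exact Clopper-Pearson ones. Cells were thinned once, without replacement, to 2400 UMIs, a depth every cell reached. Clusters came from scanpy 1.11.5 (2000 variable genes, 30 components, 15 neighbours, Leiden resolution 0.3). Ratios, thinning and correlations were tested on simulated data. The simulated ratios held counting error alone, and the simulated correlation was compared with genes of the same mean only. Spread between cells in the ratios and ranking over genes of different level were therefore not covered. Neighbours are from GENCODE M21. Named genes were the 10 most and 5 least similar to Apoe, the 10 most similar to Apoc1, neighbours with at least 100 UMIs, and, per pathway group, the most abundant member and those past 1.2-fold, plus Trem2, Lrp1, Abca1, Abcg1, Nr1h2 and Nr1h3 always (a further gene of this rule is not reported here); other pathway genes named were chosen after their values were seen. Members and lists were chosen with earlier results of these data known.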

Additional observations from a re-analysis of the deposited data

How the results depend on the processing

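Both log2 ratios kept their direction under every alternative run. For Apoe, 0.20 as reported, the value was 0.18 with a minimum of 5000 UMIs per cell, 0.19 with a mitochondrial limit of 5%, 0.30 when each cell counted alike and 0.29 with cells thinned to 2400 UMIs (both past a ratio of 1.2), 0.23 relative to a total without mitochondrial, ribosomal protein and the 2 genes themselves, and 0.24 centred on the median gene. Chosen after seeing the data were the same mix of clusters (0.12), the same mix of cell depth (0.21) and leaving out cells with at least 10 Apoc1 UMIs (0.19). For Apoc1, 0.52 as reported, 11 of 14 alternatives lay within its counting interval; the others, all chosen after seeing the data, were the same mix of clusters (0.45), leaving out cells with at least 10 Apoc1 UMIs (0.45) and the ratio of shares of cells with at least 3 UMIs (0.62). Apoc1 UMIs per 1000 Apoe UMIs were 7.50 in medial and 6.23 in lateral cells when each cell counted alike, and 7.59 and 6.26 with thinned cells. The pathway genes past a ratio of 1.2 numbered 5 of 30 with a gene minimum of 30 UMIs (20.7% of all genes), 9 of 37 with 1 UMI in each library (31.6%) and 5 of 26 when each cell counted alike (18.1%). Centring, a shift of 0.04 in log2, kept the count at 3 with 3 higher and 0 lower, against 2 higher and 1 lower: Lpl moved inside 1.2-fold (-0.24) and Apoc4 passed it (0.27). It also raised the neighbours past 1.2-fold from 0 to 1, an alternative chosen after seeing the data. The cause of these changes was not tested. No paired analysis was possible because each region has 1 library. Without replicate libraries none of the differences between regions has an error beyond counting.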

Other observations

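Apoc4 was detected in some, not all, of the cells rich in Apoc1, a comparison chosen after the values were seen. It was found in 51.4% of the medial and 43.8% of the lateral ones. Of cells with 0 Apoc1 UMIs after thinning, 35.9% and 29.5% held it. In the medial library Apoc4 stood at 209 CPM in the 37 cells with at least 10 Apoc1 UMIs at 2400 UMIs (70 Apoc4 UMIs). It stood at 68.9 CPM in the 1427 cells with 0 at that depth. In the lateral library the values were 84.8 CPM in 16 cells, on 13 Apoc4 UMIs, and 61.3 CPM in 1711 cells. On so few UMIs this lateral difference is not read as a direction. Free RNA held Apoc4 at 83.4 CPM in the medial and 66.6 CPM in the lateral library. Across cells r between Apoc4 and Apoe was 0.20 in each library, and between Apoc4 and Apoc1 it was 0.07 and 0.06, which in counts this sparse is a description only.

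The 3 barcodes of each library over the mitochondrial limit held Apoe at 70712 CPM in the medial and 53618 CPM in the lateral library, and Apoc1 on 1 and 2 UMIs.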
